A study of Mus musculus with 24 samples.

Results

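Astrocytes of the cortical region were studied by single-nucleus RNA sequencing in *Pdgfb* ret/ret mice and their *Pdgfb* ret/wt controls. A nucleus of a cortical library was counted as an astrocyte when it held at least 5 unique molecular identifiers (UMIs, each marking 1 captured RNA molecule) summed over *Slc39a12*, *Ntsr2*, *Gja1*, *Aqp4* and *Atp13a4*, no UMI of the neuronal gene *Rbfox3* or the microglial gene *Csf1r*, and at most 1 UMI summed over the myelin genes *Mog*, *Mag* and *Mobp*. Of 41761 cortical nuclei with more than 500 and fewer than 7000 genes, less than 20% mitochondrial UMIs and at least 1500 UMIs, 1371 met this rule. Over all 24 libraries of the series, 161737 nuclei met the same limits on genes, mitochondrial share and UMIs.

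The series compared 6 mutant mice with 6 control mice of strain B6.Pdgfbtm3Cbet, and each brain gave 1 cortical and 1 deep brain library. The mutants carry 2 ret alleles of *Pdgfb*, which lack the motif that holds the growth factor PDGF-B near the vessel wall, in every cell and from conception, whereas the controls carry 1 ret and 1 wild-type allele, so that no mouse was free of the ret allele. These mutants have too few pericytes on brain vessels, and vessels of their deep brain region calcify, whereas the cortical region was dissected as the one not prone to calcification. No treatment of these mice is given in the labels. At death the mice numbered 1 to 3 were 5 months plus 0, 3 or 18 days of age, and those numbered 4 to 6 were younger, at 4 months plus 7 to 24 days. All were female except control mouse 6, which was male. The cortical tissue included the hippocampus with the cerebral cortex, so the nuclei come from astrocytes of several layers and fields.

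Astrocytes clear glutamate and potassium from the space around synapses, couple to one another through gap junctions and cover brain vessels with endfeet that carry the water channel AQP4. They make most of the cholesterol and apolipoprotein E of the adult brain and secrete proteins that act on synapses, and after injury many raise the intermediate filament protein GFAP. Their expression differs between brain regions, in part through transcription factors kept from development. Endfeet adjoin the capillaries from which pericytes are missing in the mutant.

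The nuclei were spread unevenly over the libraries. Control mice 1 to 6 gave 41, 63, 37, 35, 413 and 57 astrocyte nuclei, and mutant mice 1 to 6 gave 39, 36, 22, 40, 322 and 266. Control mouse 5, mutant mouse 5 and mutant mouse 6 thus held 1001 of the nuclei (73.0%), at a median of 3178 to 4492.5 UMIs per nucleus, whereas the 9 other libraries held 22 to 63 nuclei each at 5706 to 8716.5. Over all barcodes the order was the reverse, with a median of 3229 to 3305 genes in the 3 libraries and 415 to 714 in the 9. In the 9, only 955 to 2676 nuclei of 6974 to 14346 barcodes met the limits. In the 3 it was 6498 to 10596 nuclei of 7203 to 11273 barcodes. The astrocyte UMIs summed per library ran from 183987 to 1485795. The median UMIs per nucleus were 6643.75 ± 2157 in mutants and 5546.5 ± 1229 in controls (mean ± SD, n = 6 each; 2-sided exact permutation test, P = 0.299). Values below are summed over the astrocyte nuclei of each library, so that the mouse and not the nucleus is the replicate. Fewer cells of a subtype and less RNA per cell cannot be told apart in such sums.

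In mutants the share of astrocytes among the cortical nuclei was 1.46% to 4.09%, with a median of 2.78%, and in controls it was 2.42% to 3.90%, with a median of 3.02%. The ranges overlapped, although mutants 1, 3 and 4 lay below the lowest control and mutant 6 above the highest, and the means, 2.77 ± 0.914% and 3.04 ± 0.531% (SD, n = 6 each), did not differ beyond the spread between mice (2-sided exact permutation test over 924 splits, P = 0.567, smallest possible P = 0.00216). The share was lower in the cortex than in the deep brain of the same mouse in 12 of 12 mice (2.90 ± 0.726% against 7.54 ± 1.18%, n = 12; exact sign-flip test, P = 0.000488, the smallest that 12 pairs allow).

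**Figure D1:**
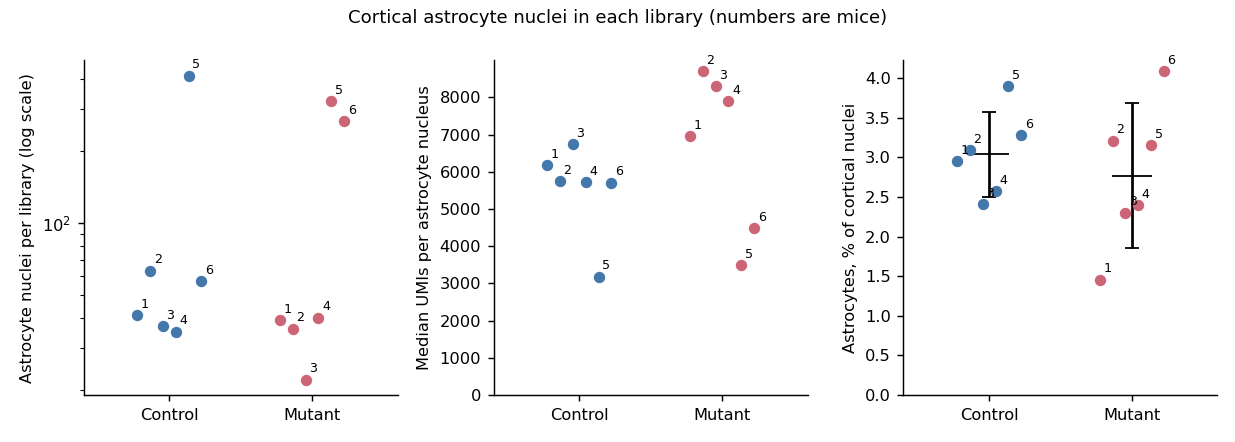
Number of cortical astrocyte nuclei on a log axis (left), their median UMIs (middle) and their share among the cortical nuclei meeting the same limits, in percent (right), with 1 numbered point per mouse, and the mean ± SD of 6 mice as bars beside the shares. Control mouse 5, mutant mouse 5 and mutant mouse 6 stand above the other libraries in number, whereas the shares of mutants (1.46% to 4.09%) and controls (2.42% to 3.90%) overlap.

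The 10 genes of the rule chose the nuclei, and their levels are given here as a description. In CPM, the counts of a gene scaled to a common total of UMIs, the median over controls and over mutants was 572 and 609 for *Slc39a12*, 1150 and 1379 for the neurotensin receptor *Ntsr2*, 1078 and 873 for the gap junction gene *Gja1*, 450 and 589 for *Aqp4*, and 267 and 311 for *Atp13a4*. At the threshold, 57 nuclei held exactly 5 marker UMIs, and 70 nuclei that met every other condition held 4. Outside the rule, 16 genes of astrocyte identity summed to 26734 to 33326 CPM in mutants and 31388 to 35304 in controls, against 1324 to 1722 in the remaining cortical nuclei, so the nuclei carried the markers that their name calls for.

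Markers of other cell types were present at differing levels. Microglial markers summed to 67.2 to 156 CPM over the 12 libraries, and the defining genes *Ptprc* and *Siglech* had 4 and 5 UMIs in all. The 8 mural markers summed to 133 to 418 CPM over the 12 libraries, against 9.61 to 36.9 in the remaining nuclei. *Pdgfrb* held 934 of their UMIs, *Atp13a5* 533, *Vtn* 179, *Notch3* 138 and *Acta2* 53, whereas *Rgs5* had 10, *Abcc9* 5 and *Kcnj8* 0. The 12 neuronal markers summed to 1123 to 4380 CPM in mutants, with a median of 2124, and to 1125 to 2021 in controls, with a median of 1487, against 18140 to 20312 in the remaining nuclei (exact permutation test between genotypes, P = 0.134). *Rbfox3*, one of the 12, was fixed at 0 in the astrocytes by the rule, so it counts only in the remaining nuclei. Fibroblast markers ran from 81.5 to 287 CPM in mutants, with a median of 144, and from 195 to 477 in controls, with a median of 323. These ranges overlapped, the means differed (exact permutation test, P = 0.0130, not adjusted for the number of sums tested), and all lay above the 18.2 to 51.2 CPM of the remaining nuclei. *Ranbp3l* alone held 955 of the fibroblast UMIs, *Col1a2* 217, *Col1a1* 178, *Dcn* 109, *Slc6a13* 90, *Slc22a6* 43, *Col3a1* 25 and *Lum* 14. The sum thus rests mainly on 1 gene. Markers of oligodendrocyte precursors summed to 186 to 967 CPM in mutants, with a median of 375, and to 83.7 to 616 in controls, with a median of 124, and overlapped (exact permutation test, P = 0.132). The sums for microglial, endothelial, mural and ependymal markers had exact permutation test P values between 0.247 and 0.714. *Csf1r*, fixed at 0 by the rule, adds nothing to the microglial sums. No test is given for the oligodendrocyte sum, since it holds *Mog*, *Mag* and *Mobp*, which the rule limits.

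The genotype comparison asked which genes differed between cortical astrocytes of mutants and controls. Of 6289 genes tested, 21 were higher in mutants (0.334%) and 18 lower (0.286%) at an adjusted P under 0.05 (edgeR quasi-likelihood test, Benjamini-Hochberg). The lower genes were led by *Mfge8* and the higher genes by *Cadps*, each with the smallest P of its direction. Most of the higher genes had more signal in other nuclei than in astrocytes. Of the 39, 21 had no overlap between the 6 mutants and the 6 controls (11 higher, 10 lower), whereas over all genes tested 0.541% lay wholly above and 0.493% wholly below the controls.

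*Mfge8* encodes a secreted protein that links dying cells to phagocytes (ENSMUSG00000030605, GRCm38 chr7:79133768-79149060, minus strand). Its normalised level in controls 1 to 6 was 1084, 1074, 817, 803, 787 and 679 CPM, and in mutants 1 to 6 it was 356, 253, 329, 376, 211 and 440 CPM. Every mutant lay below every control. The log2 change was −1.42 ± 0.18 (SE; edgeR adjusted P = 0.000937), and it was −1.67 in mice 1 to 3 and −1.15 in mice 4 to 6. Pooled over the cortical libraries, the level in astrocytes was 53.8 times that of the remaining cortical nuclei.

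*Hs3st3a1*, a 3-O-sulfotransferase that modifies heparan sulfate chains (ENSMUSG00000047759, chr11:64435332-64522841, plus strand), ran from 45.8 to 98.2 CPM in controls (median 52.3) and from 14.4 to 26.3 in mutants (median 15.2). The groups did not overlap, and the log2 change was −1.68 ± 0.26 (edgeR adjusted P = 0.00624). *Hs3st3a1* held only 235 UMIs over all cortical astrocyte nuclei, so its levels in the libraries with few nuclei rest on few UMIs. *Cyp4f15*, a cytochrome P450 of the fatty acid hydroxylase family, was 126 to 221 CPM in controls (median 164) and 62.8 to 112 in mutants (median 80.1), again without overlap (log2 change −0.99 ± 0.17, edgeR adjusted P = 0.0120). The long non-coding RNA *C030018K13Rik* was 204 to 282 CPM in controls and 61.1 to 166 in mutants (log2 change −1.15 ± 0.19, edgeR adjusted P = 0.0103). These 3 genes were, like *Mfge8*, mainly astrocytic, with levels 19.5, 93.4 and 110 times those of the remaining nuclei.

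*Entpd2*, which hydrolyses extracellular ATP (chr2:25395874-25401321, plus strand), ran from 77.7 to 164 CPM in controls (median 103) and from 35.4 to 79.6 in mutants (median 43.9). Only the highest mutant reached into the control range (log2 change −1.25 ± 0.24, edgeR adjusted P = 0.0198). *Mgll*, the lipase that degrades the endocannabinoid 2-arachidonoylglycerol, ran from 216 to 521 CPM in controls (median 352) and from 122 to 235 in mutants (median 192), with overlap (log2 change −0.96 ± 0.19, edgeR adjusted P = 0.0254). *Asah1*, the lysosomal acid ceramidase, went from a median of 178 to 104 CPM without overlap (log2 change −0.76 ± 0.16, edgeR adjusted P = 0.0325).

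*Emx2*, a homeobox transcription factor of the dorsal forebrain (chr19:59458372-59465357, plus strand), was 31.4 to 68.6 CPM in controls (median 53.3) and 14.4 to 37.2 in mutants (median 20.2), with overlap (log2 change −1.17 ± 0.25, edgeR adjusted P = 0.0382). The remaining lower genes chosen by the naming rule were *B3galt2*, a galactosyltransferase (−1.18), *Acat3*, an acetyl-CoA acetyltransferase (−1.19), *Bmper*, a secreted regulator of bone morphogenetic proteins (−1.18), and *Rgs7bp*, a membrane anchor of G protein regulators (−0.80), all on the log2 scale. *B3galt2* and *Rgs7bp* did not overlap between the groups, and *Acat3* and *Bmper* did. *Emx2* held only 239 UMIs and *B3galt2* only 215 over all cortical astrocyte nuclei, so their levels in the libraries with few nuclei also rest on few UMIs. *Entpd2*, *B3galt2*, *Acat3* and *Emx2* share part of their span with another tested gene (*Npdc1*, *Cdc73*, *Tcp1* and *Emx2os*), whose log2 changes lay between −0.29 and −0.12.

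*A2m* had the largest fold of the higher genes named. It encodes alpha-2-macroglobulin, a secreted protease inhibitor (ENSMUSG00000030111, chr6:121635376-121679227, plus strand), and its level was 7.55, 2.64, 31.4, 9.39, 16.6 and 8.35 CPM in controls 1 to 6 and 35.9, 87.2, 122, 32.1, 54.0 and 38.3 CPM in mutants 1 to 6. The lowest mutant lay just above the highest control. *A2m* held only 229 UMIs over all cortical astrocyte nuclei. Control 2, at 2.64 CPM, had 384941 astrocyte UMIs of all genes, so such low levels rest on very few UMIs of *A2m*. The log2 change was 2.07 ± 0.41 (edgeR adjusted P = 0.0247), and *A2m* was mainly astrocytic, at 50.5 times the level of the remaining nuclei.

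*Cadps*, which primes dense-core vesicles for release (ENSMUSG00000054423, chr14:12372563-12823079, minus strand), was 79.8 to 125 CPM in controls (median 103) and 187 to 301 in mutants (median 228). The groups were fully apart, and the log2 change was 1.20 ± 0.16 (edgeR adjusted P = 0.00132). *Kcnq1ot1*, an imprinted non-coding RNA antisense to *Kcnq1*, was 172 to 295 CPM in controls and 302 to 525 in mutants (log2 change 0.98 ± 0.17, edgeR adjusted P = 0.0103). *Nav2*, a cytoskeletal protein of growing neurites, was 230 to 310 CPM in controls and 371 to 479 in mutants (log2 change 0.73 ± 0.12, edgeR adjusted P = 0.0103). Neither of these overlapped between the groups.

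*Agbl4*, a carboxypeptidase that trims glutamate chains of tubulin, was 145 to 287 CPM in controls (median 188) and 254 to 610 in mutants (median 487), with overlap (log2 change 1.22 ± 0.21, edgeR adjusted P = 0.0103). *Fgf14*, an intracellular partner of sodium channels, was 778 to 1169 CPM in controls and 1412 to 1671 in mutants, without overlap (log2 change 0.64 ± 0.12, edgeR adjusted P = 0.0153). *Mgat5*, which branches N-glycans, was 282 to 529 CPM in controls and 484 to 968 in mutants, with overlap (log2 change 0.89 ± 0.17, edgeR adjusted P = 0.0179). The other higher genes named by the rule were *Rit2* (1.40), *Fam155a* (1.26), *Pdzrn3* (1.05), *Rimklb* (0.86) and *Rims2* (0.69) on the log2 scale. *Rit2* is a neuronal small GTPase, *Fam155a* a subunit of a sodium leak channel, *Pdzrn3* a ubiquitin ligase, *Rimklb* an enzyme that makes N-acetylaspartylglutamate and *Rims2* a scaffold of the presynaptic active zone.

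**Figure D2:**
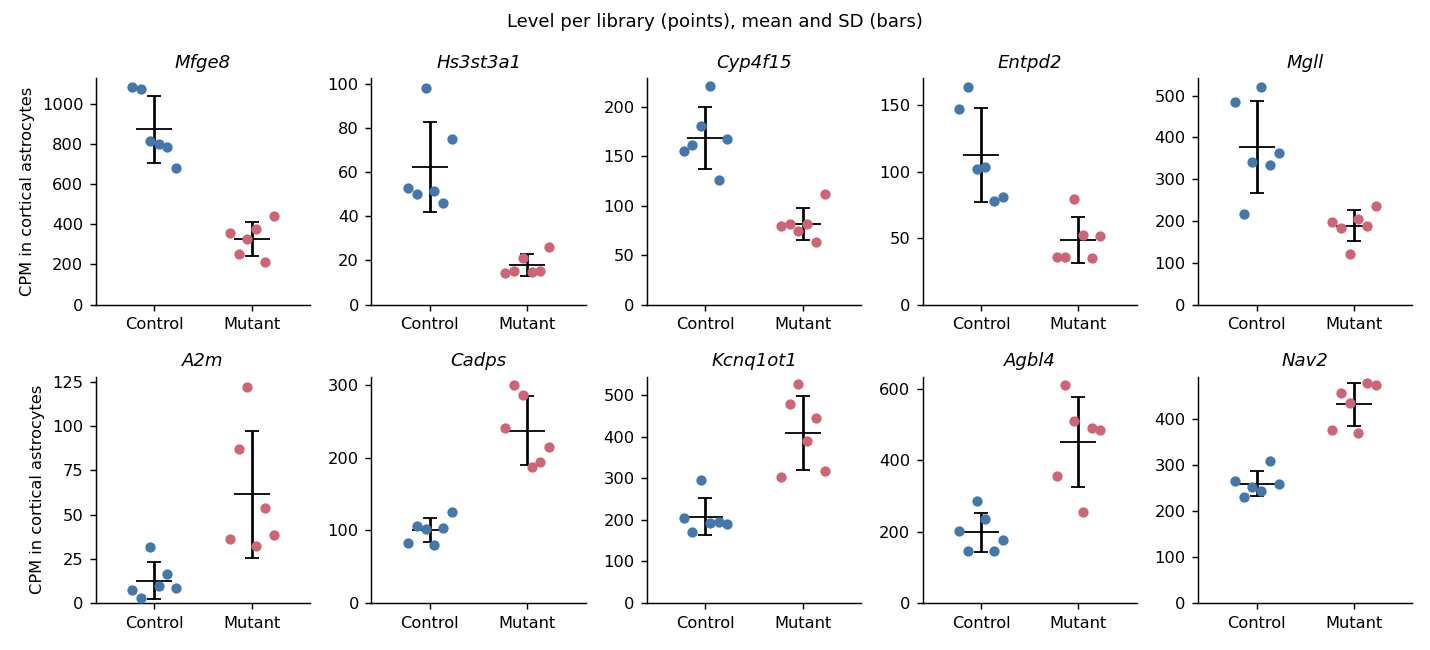
Normalised level in CPM of 5 genes lower and 5 genes higher in cortical astrocytes of mutants, with 1 point per mouse and bars at the mean ± SD (n = 6 each). *Mfge8*, *Hs3st3a1* and *Cyp4f15* show all mutants below all controls, *A2m*, *Cadps*, *Kcnq1ot1* and *Nav2* all mutants above all controls, and *Entpd2*, *Mgll* and *Agbl4* overlap.

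The genes higher in mutants were often more abundant outside astrocytes. Of the 21, 14 had a higher level in the remaining cortical nuclei than in the astrocytes (median ratio of astrocytes to remaining nuclei 0.582), among them *Fam155a* at a ratio of 0.110, *Rit2* at 0.154 and *Cadps* at 0.177. Of the 18 lower genes, 14 had the higher level in astrocytes (median ratio 4.64). Beside this stand the neuronal marker sums given above, which were 4380, 2419 and 2250 CPM in mutants 2, 1 and 3 and at most 2021 in a control, and were lowest of all, at 1123, in mutant 6. Of the 10 neuronal markers tested, 9 had a positive log2 change and none passed, *Meg3* at 0.91 ± 0.38 (edgeR adjusted P = 0.368) and *Rbfox1* at 0.74 ± 0.32 (edgeR adjusted P = 0.403). Both precursor markers tested were positive without passing, *Lhfpl3* at 1.11 ± 0.55 (edgeR adjusted P = 0.511) and *Vcan* at 0.93 ± 0.37 (edgeR adjusted P = 0.350). The part of precursor RNA in the higher genes was not tested. With the neuronal marker level as a covariate, 18 genes were higher and 10 lower, and these held only 23 of the 39 called without it. Which of the higher genes rest on neuronal RNA was not tested.

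The number of genes called rested on individual libraries and on the marker threshold. With at least 3 marker UMIs in place of 5, which gave 1542 nuclei, 6 genes were higher and 5 lower, and all 11 were among the 39. Leaving out mutant mouse 5 left 7 higher and 5 lower genes, whereas leaving out mutant mouse 6 gave 42 and 40. The counts were 11 and 7 without control mouse 1, 12 and 7 without control mouse 2, 9 and 8 without control mouse 3, 11 and 8 without control mouse 4, and 10 and 6 without mutant mouse 2. The higher genes were 13 without control mouse 5 or 6, and the lower genes 10 without mutant mouse 1 or 3. Mice 1 to 3 alone gave 8 and 14, and mice 4 to 6 alone 0 and 0 (487 genes at an unadjusted P under 0.05 of 9871 tested), and nuclei with at most 1 UMI summed over *Mog*, *Mag*, *Mobp*, *Snap25* and *Meg3*, which left 729 nuclei and only 7 libraries with the 10 or more nuclei needed for the fit, also gave 0 and 0 (291 at an unadjusted P under 0.05 of 4576). The median absolute log2 change of the named genes was 1.16 over all libraries (24 genes), 0.95 in mice 4 to 6 alone (24 genes) and 0.91 under the limit on other cells (22 genes). *Kcnq1ot1*, for example, was at 0.98, 1.00 and 1.00, and *Fam155a* at 1.26, 1.08 and 0.58. With the mice blocked by their age in the labels, 47 genes were higher and 37 lower. Of the 24 genes named by the rule, 11 passed without any 1 library: *Mfge8*, *Hs3st3a1*, *C030018K13Rik*, *Cyp4f15*, *Cadps*, *Kcnq1ot1*, *Agbl4*, *Nav2*, *Pdzrn3*, *Fgf14* and *Fam155a*. *A2m* was lost without any of 6 of the 12 libraries, *Entpd2* and *Mgll* without any of 4, *Emx2* without any of 8, and *Acat3* without any of 10. None of the 24 changed sign where it could be tested, which the choice of these genes in the same libraries favours. *A2m* could be tested in 24 of 30 settings and *Rit2* in 25.

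Gene lists for the functions of astrocytes gave a call for few of their members, beside the 0.620% of all genes called. In the list of cholesterol and lipid synthesis, 24 of 27 members tested had a negative log2 change in mutants, with a median of −0.34 against about 0.00 for all genes, and no member passed. The sterol synthesis genes *Msmo1* and *Cyp51*, chosen after their values were seen, were at −0.81 (edgeR adjusted P = 0.118) and −0.88 (edgeR adjusted P = 0.122). The 3 members with the most counts were at 0.00 ± 0.19 (*Apoe*), −0.45 ± 0.16 (*Acsl3*) and −0.34 ± 0.14 (*Scd2*).

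Genes of astrocyte identity and transport stayed below the threshold. Of the 16 identity genes, 13 had a negative log2 change (median −0.15), with *Slc1a2*, the main glutamate transporter, at −0.19 ± 0.12, *Gpc5* at −0.11 ± 0.11 and *Slc1a3* at −0.04 ± 0.14. For glutamate and GABA handling it was 9 of 14 (median −0.09), for ion and pH transport 7 of 12 (median −0.14), for the endfoot and dystrophin complex 10 of 15 (median −0.08) and for basement membrane 9 of 11 (median −0.25). Beside the lower values of the basement membrane list stand the fibroblast marker sums, with a median of 144 CPM in mutants and 323 in controls. Both fibroblast markers tested were negative, *Col1a2* at −1.68 ± 0.42 (edgeR adjusted P = 0.0677) and *Ranbp3l* at −0.71 ± 0.34 (edgeR adjusted P = 0.499), and the part of fibroblast RNA in these values and in the genes lower in mutants was not tested. *Dtna* of the dystrophin complex was at 0.14 ± 0.12 and the laminin gene *Lama2* at −0.27 ± 0.13 (edgeR adjusted P = 0.499). *Slc4a4*, the sodium bicarbonate cotransporter, was at 0.38 ± 0.10, with all mutants above all controls (edgeR adjusted P = 0.108), and the amino acid transporter gene *Slc7a10*, chosen after its values were seen, at −0.43 ± 0.13, with all mutants below all controls (edgeR adjusted P = 0.143).

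Proteins directed at synapses had 17 of 21 members with a negative log2 change (median −0.09) and no call. Of the list of layer and region genes, 12 of 17 were negative (median −0.11), and *Mfge8* alone passed. *Emx2* was the only member of 19 transcription factors to pass, and 9 of these were positive and 10 negative. Vascular signals had 12 of 18 negative (median −0.12), with *Sparcl1* at −0.01 ± 0.16 and *Ednrb* at 0.01 ± 0.13. Clock genes (19 tested), glucocorticoid-responsive genes (10), hypoxia and glycolysis genes (15) and immediate early genes (2) had no call, with medians of −0.03, 0.00, 0.01 and −0.47.

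The phosphate and familial calcification list holds the genes in which mutations cause primary familial brain calcification in people, together with other phosphate handling genes. Of its 12 members 8 could be tested in cortical astrocytes, 5 were positive and none passed. The phosphate transporter gene *Slc20a1* was at 0.57 ± 0.16 (edgeR adjusted P = 0.120), *Ank* at 0.33 ± 0.19 (edgeR adjusted P = 0.607) and the phosphate exporter gene *Xpr1* at 0.00 ± 0.13. The other members tested were *Slc20a2* at 0.36 (edgeR adjusted P = 0.569), *Jam2* at 0.46 (edgeR adjusted P = 0.282), *Myorg* at −0.40 (edgeR adjusted P = 0.537), the PDGF-B receptor gene *Pdgfrb* at −0.64 (edgeR adjusted P = 0.317) and *Naa60* at −0.34.

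Reactive genes were mostly too low to test in these nuclei. Of 18 pan-reactive genes 5 were tested, of 12 A1-type genes 1, of 12 A2-type genes 0, and of 29 interferon-response genes 7, and none of them passed. *Gfap* was at 0.83 ± 0.27 (edgeR adjusted P = 0.204), the complement gene *C4b* at 0.82 ± 0.38 (edgeR adjusted P = 0.465), *Stat3* at 0.26 ± 0.19 and *H2-K1* at 0.18 ± 0.24. *C4b* and *H2-K1* have near-identical neighbours among the mouse complement and histocompatibility genes, so their counts could be split between copies. The missing tests are a limit of the 1371 nuclei and not a measurement of absence.

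*Gfap* (ENSMUSG00000020932, chr11:102887336-102900912, minus strand) was then followed by nucleus, as the gene most used to mark reactive astrocytes. *Gfap* is also a member of the list of layer and region genes, and the part of layer or field in its values was not tested. Its raw level was 40.3, 133, 183, 111, 106 and 97.9 CPM in controls 1 to 6 and 180, 186, 402, 203, 136 and 151 CPM in mutants 1 to 6. The groups overlapped in part, and the means were 112 ± 46.7 and 210 ± 97.4 CPM (n = 6 each; 2-sided exact permutation test of this 1 gene, P = 0.0173, whereas the fit over all genes did not call it). A *Gfap* UMI was found in 23.8 ± 6.50% of the control astrocytes and 42.8 ± 15.3% of the mutant ones (exact permutation test, P = 0.0173). With every nucleus thinned to 1500 UMIs, the shares were 13.7 ± 6.42% and 16.8 ± 7.12% (exact permutation test, P = 0.461).

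Neuronal nuclei of the same libraries, which should lack *Gfap*, were set beside the astrocytes. They held at least 2 UMIs of *Rbfox3* and no UMI of the 5 astrocyte markers of the rule. The second limit leaves out neurons with stray RNA of those markers, so the *Gfap* of the rest may understate the background. A *Gfap* UMI was present in 1.27 ± 0.701% of control and 3.83 ± 1.90% of mutant neurons (exact permutation test, P = 0.0130), at mean median depths of 16076 and 17077 UMIs. Their level was 0.890 and 2.22 CPM (exact permutation test, P = 0.0130), far below that of the astrocytes. Thinned to 1500 UMIs, the neuronal shares were 0.256% and 0.545% (exact permutation test, P = 0.0779). The *Gfap* of other nuclei thus moved with genotype as well, and its part in the astrocyte values was not tested.

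Nuclei with *Gfap* were compared with nuclei without it in the same libraries. There were 354 with and 1017 without, and the median depth was greater in the nuclei with *Gfap* in 9 of the 12 libraries (medians over libraries 6444 and 5888 UMIs). Of 3360 genes tested with the library as a block, 27 were higher (0.804%) and 6 lower (0.179%) in nuclei with *Gfap*. The higher genes were led by *C4b*, and they included the angiopoietin gene *Angpt1* and the urea transporter gene *Slc14a1*. Nuclei of both kinds came from the same mice, so this is a difference among cortical astrocytes and not between the genotypes.

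*C4b* (chr17:34728380-34743882, minus strand) ran from 21.8 to 476 CPM (median 127) in nuclei with *Gfap* and from 5.91 to 69.1 (median 46.1) in nuclei without. It was higher with *Gfap* in 12 of 12 libraries (log2 change 1.52 ± 0.20, edgeR adjusted P = 0.000115). *Slc14a1* went from a median of 53.7 to 109 CPM and was higher in 11 of 12 libraries (log2 change 1.15 ± 0.17, edgeR adjusted P = 0.000331), and *Angpt1* from 45.0 to 92.7 CPM, higher in 10 of 12 (log2 change 1.25 ± 0.21, edgeR adjusted P = 0.00175). *Cadps*, which differed between the genotypes, was also higher in nuclei with *Gfap* in 11 of 12 libraries (log2 change 1.19 ± 0.17, edgeR adjusted P = 0.000315). The matrix protein gene *Tnc*, the potassium channel gene *Kcnj3*, the glutamate receptor gene *Grin3a* and the growth factor gene *Pdgfd* were higher by 1.15, 1.15, 1.10 and 1.01 on the log2 scale. The neuronal markers had 8 members tested and no call.

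The 6 genes lower in nuclei with *Gfap* were *Slc38a2*, an amino acid transporter (log2 change −1.33 ± 0.30), *Dpp10* and *Kcnd2*, which form one potassium channel complex (−0.74 ± 0.15 and −0.71 ± 0.14), *Gabbr2*, a GABA-B receptor subunit (−0.71 ± 0.14), *Unc13c* (−0.70 ± 0.17) and *Chchd3* (−0.46 ± 0.11). *Unc13c* was no longer called in 2 of the 3 other settings (highest edgeR adjusted P = 0.0854) and *Chchd3* in 1 of the 3 (edgeR adjusted P = 0.0819). *Dpp10* and *Gabbr2* were higher with *Gfap* in 0 of 12 libraries. *Dpp10*, *Kcnd2* and *Gabbr2* had a lower level in astrocytes than in the remaining nuclei (ratios 0.0606, 0.269 and 0.464). So did *Cadps* (0.177) and *Kcnj3* (0.297), which were higher with *Gfap*. Median marker UMIs were higher in the nuclei with *Gfap* in every library (12 to 38 against 11 to 28). The part of RNA of other cells in these differences was not tested. Of the lists, the higher genes held the identity genes *Clu* and *Slc1a2*, the lipid carrier gene *Apoe*, the secreted *Sparcl1*, the transcription regulators *Id3* and *Id4*, and the netrin receptor gene *Unc5c*. *Id3* and *Unc5c* belong, as *Gfap* does, to the list of layer and region genes. Of the 13 members of that list tested, 2 were positive and 11 negative.

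**Figure D3:**
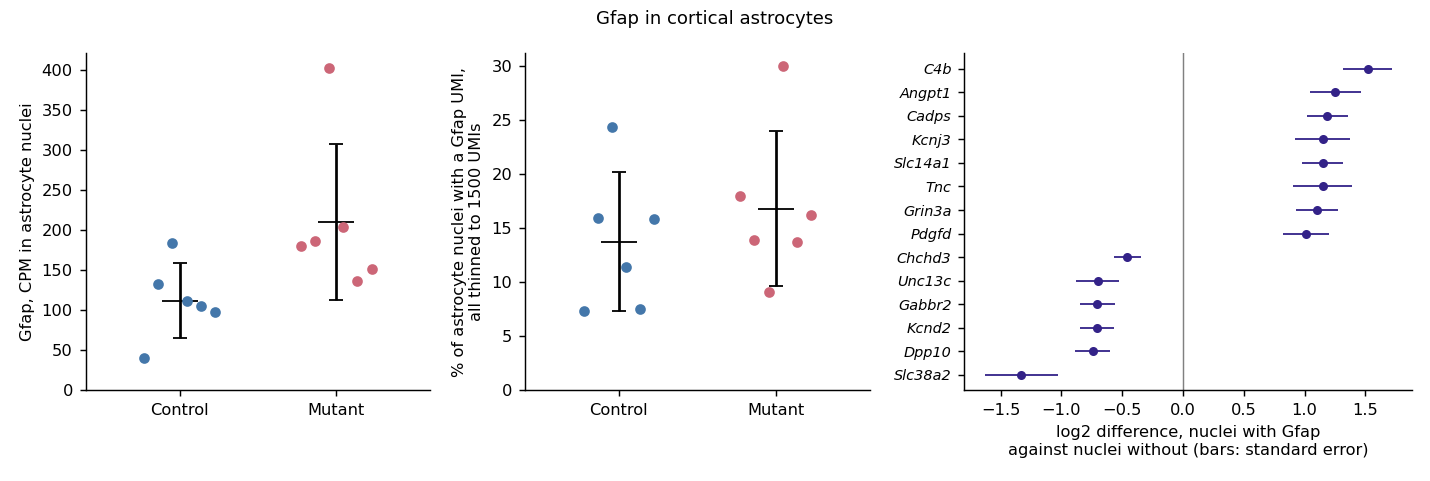
Raw *Gfap* level in CPM (left) and share of cortical astrocyte nuclei with a *Gfap* UMI after thinning to 1500 UMIs, in percent (middle), with 1 point per mouse and bars at the mean ± SD (n = 6 each), and log2 difference between nuclei with and without *Gfap* for the named genes, with bars at ± SE (right). The level of mutant mouse 3 (402 CPM) lies above the others, the thinned shares overlap, and *C4b* has the largest difference (1.52).

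Cortical and deep brain astrocytes of the controls were then compared within mice, to show which expression the cortical cells had of their own. The deep brain libraries held 535 to 991 astrocyte nuclei each by the same rule, at a median of 2953.5 to 4497 UMIs. Library quality differed between the regions. Over all barcodes, the median number of genes was 2244 to 3207 in the control deep brain libraries. In the control cortical libraries it was 415 to 572, except 3265 in that of mouse 5. The part of this in the regional differences was not tested. Of 12708 genes tested, 574 were higher in the cortex (4.52%) and 452 lower (3.56%), or 8.07% in all, in a fit that kept the mouse as a block. Forebrain transcription factors, synapse-directed proteins and cholesterol enzymes were among the higher genes, and the GABA transporter gene *Slc6a11*, the bicarbonate transporter gene *Slc4a4* and the angiotensinogen gene *Agt* among the lower.

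*Chrdl1*, a secreted antagonist of bone morphogenetic proteins that acts on synapse maturation (chrX:143285674-143394262, minus strand), was 79.2 to 241 CPM in the control cortex (median 140) and 15.1 to 49.3 in the deep brain (median 23.3). The regions did not overlap, and *Chrdl1* was higher in the cortex in 6 of 6 pairs (log2 difference 2.35 ± 0.21, edgeR adjusted P = 1.69e-07). *Emx2* was 31.3 to 68.3 CPM against 3.99 to 17.8, also apart (2.01 ± 0.22, edgeR adjusted P = 1.58e-06), and hepatocyte growth factor (*Hgf*) 34.2 to 103 against 5.32 to 17.8 (2.09 ± 0.26, edgeR adjusted P = 1.2e-05). *Prg4*, *Ccn3* and *Fn1* had log2 differences of 2.77, 2.22 and 2.07 but were higher in only 4 of 6 pairs, and *Prg4* was lost without control mouse 5 and *Fn1* without control mouse 3 or 5. The other higher genes by the naming rule were *Ccn1*, *Gm26843*, *Hapln1*, *Lama3* and *Fam184b*, at 1.73 to 1.89.

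On the deep brain side, the neuregulin receptor gene *Erbb4* was 224 to 395 CPM in the control cortex (median 357) and 1804 to 2865 in the deep brain (median 2060), and the AMPA receptor gene *Gria1* 164 to 364 against 912 to 1134. Both were lower in the cortex in 6 of 6 mice, without overlap, at log2 differences of −2.69 ± 0.26 and −2.0 ± 0.16. The largest differences among the genes named were those of 2 non-coding RNAs, *B230323A14Rik* (−3.53) and *A330076C08Rik* (−3.35). *Sfrp5*, *Igsf1*, *Bbox1*, *Ctnna3*, *Stk32a*, *Gjc3*, *Acvr1c* and *Sntg1* lay between −2.65 and −1.89, and each was lower in the cortex in all 6 pairs.

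The lists are described by their counts, beside the 4.52% of all genes tested that were higher in the cortex and the 3.56% that were lower. Of 23 synapse-directed genes, 10 were higher in the cortex and 1 lower (median 0.39 against −0.02 for all genes). The growth factor gene *Ptn* was 1180 to 1935 CPM against 421 to 825 (1.25 ± 0.13, edgeR adjusted P = 9.21e-07), and the proteoglycan genes *Cspg5* and *Ncan* were higher by 1.11 and 0.84, whereas *Sparc* was lower at −1.26. Of 30 transcription factors 8 were higher, among them *Lhx2* (1.36), *Id4* (1.04) and *Pax6* (0.99), and *Sox6* was lower at −0.46. Of 19 layer and region genes 8 were higher and 4 lower (median 0.64).

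Cholesterol and lipid synthesis had 10 of 28 members higher in the cortex and 1 lower (median 0.33). *Msmo1* was 407 to 721 CPM in the cortex and 265 to 376 in the deep brain, without overlap (0.72 ± 0.11, edgeR adjusted P = 0.000129), and the cholesterol exporter gene *Abca1* was lower at −0.34. The immediate early genes had 14 tested, 6 higher and 0 lower (median 1.01), with *Nr4a1* at 1.45 and *Fos* at 0.96. Of the reactive genes, the pan-reactive *Vim* (1.58) and *Osmr* (1.67) and the A1-type *Serping1* (1.91), *Ggta1* (1.12) and *Fkbp5* (1.04) were higher in the cortex, from low levels, which made 2 of 9 and 3 of 7 members tested.

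For transmitter handling the regions differed in both directions. *Slc1a3* was 2548 to 4192 CPM in the cortex and 1224 to 2207 in the deep brain (1.01 ± 0.10), and *Slc1a2* 8208 to 10814 against 4773 to 7875 (0.72 ± 0.10), both without overlap. The GABA transporter *Slc6a11* was 347 to 549 CPM against 844 to 1395 (−1.42 ± 0.11, edgeR adjusted P = 4.63e-08), and the glycine transporter *Slc6a9* was lower at −1.89. *Slc4a4* (−0.86), the potassium channel gene *Kcnj10* (−0.67) and the volume-regulated anion channel gene *Lrrc8a* (−0.75) made 3 of 14 ion and pH transport genes lower, and none was higher. Among vascular signals 5 of 26 were higher and 7 lower, the hedgehog receptor gene *Ptch1* at −0.94 and its target *Gli1* at −1.19.

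Other cell types moved with region too. The fibroblast marker sum was 195 to 477 CPM in the control cortex and 85.9 to 195 in the deep brain, and 3 of 5 fibroblast markers tested were higher in the cortex, *Dcn* at 1.77. The neuronal sums were 1125 to 2021 CPM and 819 to 1660, with the excitatory genes *Slc17a7* (1.44) and *Camk2a* (1.18) higher and the inhibitory gene *Gad2* (−1.29) lower. *Fn1*, *Prg4* and *Lama3* are also genes of connective tissue, and the part of such RNA in the regional differences was not tested.

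**Figure D4:**
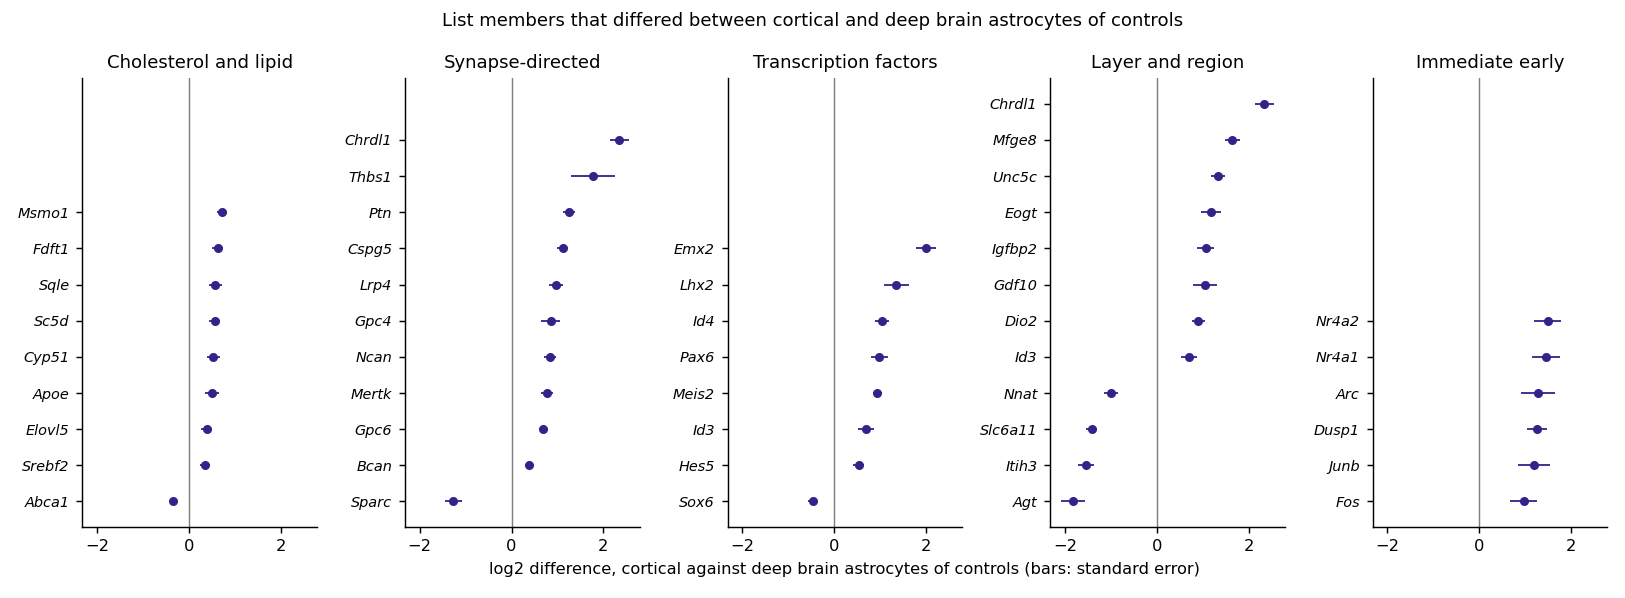
Log2 difference, cortical against deep brain astrocytes of controls, of members that passed the test in 5 gene lists, with 1 point per gene and bars at ± SE (n = 6 mice). In the synapse-directed, cholesterol and transcription factor lists the members shown lie above 0 except *Sparc* (−1.26), *Abca1* (−0.34) and *Sox6* (−0.46).

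The genotype change in the cortex was set beside that in deep brain astrocytes of the same mice, measured in separate libraries. In the deep brain 235 of 13156 genes were higher in mutants (1.79%) and 150 lower (1.14%), or 2.93% in all. All 39 genes called in the cortex had the same sign there, against 64.1% of the 6289 genes tested in both, and 24 of the 39 passed in the deep brain as well, against 3.63% of those 6289. The absolute change was larger in the cortex for 35 of the 39, which the choice of genes by their cortical change favours, at a median of 1.07 against 0.68 on the log2 scale.

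*C030018K13Rik*, *Cyp4f15* and *Entpd2* fell in both regions, with deep brain changes of −1.82, −0.89 and −0.80, and *A2m* rose in both, with 1.53 in the deep brain (edgeR adjusted P = 0.000473). *Mfge8* was at −0.70 in the deep brain (edgeR adjusted P = 0.0273). *Hs3st3a1* was at −0.16 (edgeR adjusted P = 0.741), *Nav2* at 0.17 (edgeR adjusted P = 0.459) and *Rit2* at 0.22 (edgeR adjusted P = 0.671). A difference between the regions in the genotype effect was not called for any of 12708 genes (0.00%; edgeR with the mouse as a block, 607 at an unadjusted P under 0.05). DESeq2 called 3 of 12708. A fit with no filter on low counts called 77 of 24429, the genes too low for the main fit included. Fits without 1 mouse called 0 to 1. For *Hs3st3a1* the interaction was −1.61 on the log2 scale, with an unadjusted P of 0.000141 and an edgeR adjusted P of 0.358.

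**Figure D5:**
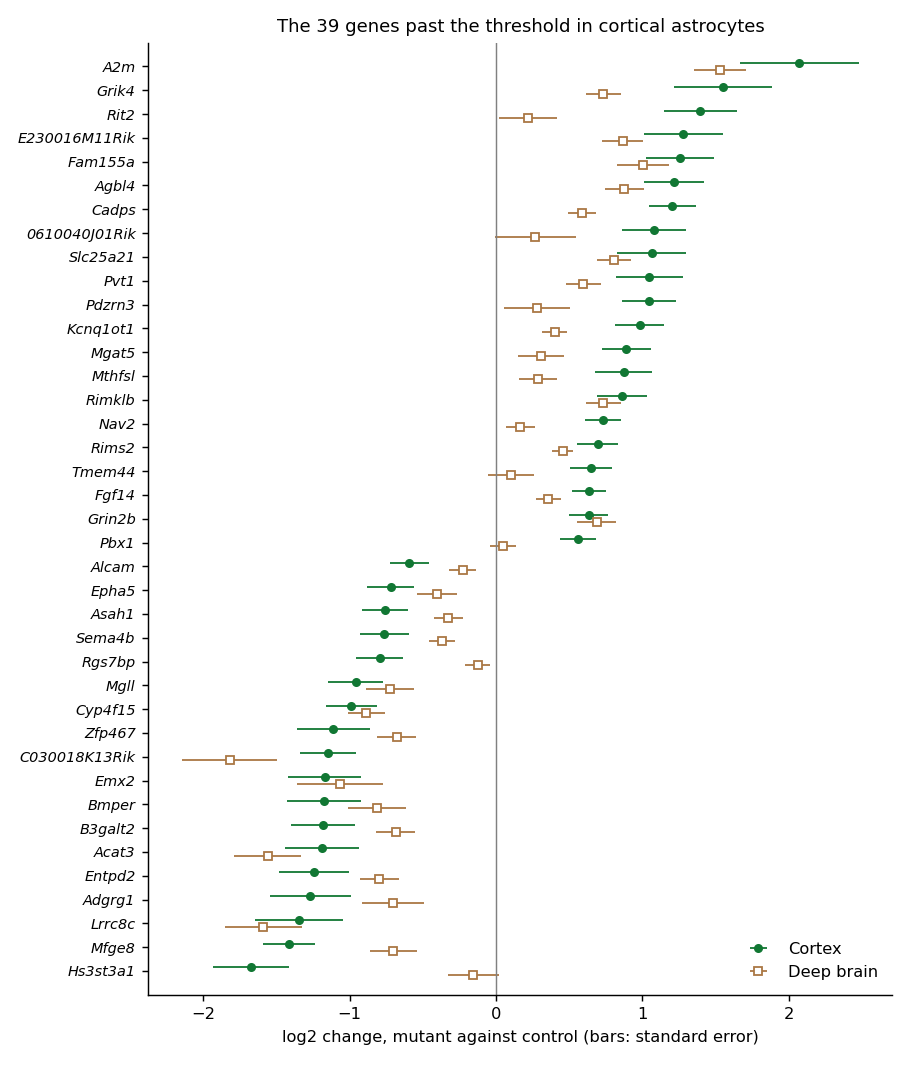
Log2 change, mutant against control, of the 39 genes called in cortical astrocytes, with 1 row per gene, filled circles for the cortex, open squares for the deep brain and bars at ± SE. Both points of each gene lie on the same side of 0, and *Hs3st3a1* is at −1.68 in the cortex and −0.16 in the deep brain.

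For 6 genes that differed with genotype in the cortex, chosen after their values were seen, the levels by region are given side by side. Both comparisons share the control cortex, which favours a mutant cortex on the deep brain side for genes chosen in this way. The 6 are not a count over the called genes, so no general shift can be read from them. *Mfge8* was 690 to 1096 CPM in the control cortex and 212 to 356 in the control deep brain (log2 difference 1.65 ± 0.16), and the mutant cortex was at 219 to 446 on the same scaling, which is that of the fit over both regions. *Hs3st3a1* was 46.8 to 97.7 CPM in the control cortex, 9.76 to 23.3 in the control deep brain and 14.2 to 26.6 in the mutant cortex, and *Mgll* 216 to 518, 98.5 to 235 and 118 to 238. *Emx2* was 31.3 to 68.3, 3.99 to 17.8 and 14.2 to 36.0 CPM in the same order. *A2m* had 2.63 to 31.3 CPM in the control cortex, 34.3 to 58.1 in the control deep brain and 32.3 to 118 in the mutant cortex. *Entpd2* had 79.4 to 163 and 84.5 to 112 CPM in the control regions and 35.5 to 77.2 in the mutant cortex.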

How the data were processed

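Tissue of 12 mice was dissected, frozen and taken to nuclei, and 24 libraries were made with 10x 5′ reagents. The deposited values are raw UMI counts per gene and barcode, which the authors made with Cell Ranger 5.0.1 after bcl2fastq 2.20.0.422 on mm10, per the labels, with intronic reads kept. A strand setting is not given in the sources used here. The limits on genes and mitochondrial share follow the study's methods, the minimum of 1500 UMIs was added here, 3 features that name no gene were left out, and no doublets were removed in the main analysis (Scrublet in scanpy 1.11.5 was an alternative, with calls that varied from 0 to 50.4% of nuclei per library). Only 2 barcodes of cortical astrocytes were shared between libraries.

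Astrocyte counts were summed per library and tested with edgeR 4.0.16 (quasi-likelihood, filterByExpr, TMM, Benjamini-Hochberg, adjusted P under 0.05) in R 4.3.3. Region, interaction and *Gfap* fits kept the mouse or library as a block. Levels are CPM scaled by TMM, except the levels of the rule genes, the marker sums and the raw *Gfap* levels, which are unscaled CPM. The ratios of astrocytes to remaining nuclei are of unscaled CPM pooled over the cortical libraries, so that libraries with more astrocyte UMIs weigh more. Single values were tested with exact permutation tests. Scripts were tested on simulated data. Positions are from GENCODE M21 (GRCm38), where 32235 of 32288 genes were found.

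The astrocyte rule, gene lists and tests were chosen with earlier results of these data known. Genes were named by these rules: of the genotype comparison, the 12 higher and 12 lower with the smallest P at a mean of at least 20 CPM; called members and the 3 members with the most counts of each list; of the region comparison, the 12 largest in each direction at 50 CPM or more; and of the *Gfap* comparison, the 8 largest in each direction at 50 CPM or more. A few genes that meet these rules are not reported here. Any other gene was chosen after its values were seen.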

Additional observations from a re-analysis of the deposited data

Results flagged for a closer look

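Of 120 groups of 6 libraries examined, 11 held a highest or lowest value set far from the rest of its group, where chance alone sets apart about 1 in 20 groups. In the astrocytes as a whole, the median UMIs per nucleus of control mouse 5 were 3178, against 5706 in the next control. The summed level of oligodendrocyte precursor markers was 615.7 CPM in control mouse 2, against 276.6 in the next control. The summed level of endothelial markers was 606 CPM in mutant mouse 6, against 130.4 in the next mutant. The raw *Gfap* level was 402.2 CPM in mutant mouse 3, which held 22 astrocyte nuclei, against 203.3 in the next mutant.

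Among the named genes of the genotype comparison, *Kcnq1ot1* was at 294.5 CPM in control mouse 3, against 204 in the next control. *Rit2* was at 36.96 CPM in control mouse 2, against 19.63 in the next control. Among those of the region comparison, the highest control cortex value of *Hgf* was 102.6 CPM (next 52.25) and that of *Stk32a* 78.17 (next 19.8). In the control deep brain, the highest value was 82.95 CPM for *Sfrp5* (next 64.34), 103.4 for *Bbox1* (next 66.92) and 214.2 for *Ctnna3* (next 150.9).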

How the results depend on the processing

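The share of astrocytes stayed lower in mutants than in controls in all 22 settings tried, at differences of −0.660 to −0.00411 percentage points, with exact P between 0.195 and 1.0. In the cortex, the counts of higher and lower genes were 21 and 18 of 6289 tested. The number tested changed with the setting. DESeq2 gave 51 and 57 of the 2384 genes to which it gave an adjusted P, and 25 of the 39 were among those 2384. No filter on low counts gave 56 and 35 of 21112. The counts were 47 and 37 with mice blocked by age, 6 and 5 with at least 3 marker UMIs, and 32 and 24 with at least 10 marker UMIs. They were 44 and 41 without the 3 libraries with the most astrocytes (added after seeing the data). With the neuronal marker level as a covariate (also added) they were 18 and 10. Mice 1 to 3 alone gave 8 and 14, and mice 4 to 6 alone and the strict limit on other cells 0 and 0. Leaving out 1 library gave 7 to 42 higher and 5 to 40 lower. Of 702 values of the 24 named genes over these settings, 545 were past the threshold and none changed sign, which the choice of genes in the same libraries favours. The cause of these shifts was not tested.

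The replicate number as a block gave 85 higher and 64 lower genes in the cortex, including all 39 called without it. In the labels, same-numbered mice 1 to 4 of both genotypes have the same age, and mice 5 and 6 match crosswise, but no shared litter, day or preparation is named. Correlations of same-numbered mice were 0.0289, 0.102, 0.157, 0.156, 0.309 and 0.360, so that 5 of 6 were over 0.1, and mutants 1 and 6 correlated best with another control.

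In the deep brain, DESeq2 called 254 lower genes against 150, and leaving out 1 library gave 148 to 380 higher and 82 to 347 lower, with 151 and 88 without mutant mouse 2, 148 and 82 without mutant mouse 3, 380 and 347 without mutant mouse 6, and 99 and 97 lower without control mouse 2 or 5. In the region comparison, no filter gave 776 lower genes of 24429 tested, against 452 of 12708. Leaving out 1 mouse gave 376 to 568 higher and 332 to 393 lower, with 377 and 376 higher without control mouse 2 or 5. Genes with an interaction numbered 3 with DESeq2, 77 of 24429 tested with no filter and 0 to 1 without 1 mouse. Genes lower in nuclei with *Gfap* numbered 11 of 1533 tested with DESeq2 and 15 of 2583 with at least 2 *Gfap* UMIs, against 6 of 3360. Depth limits what can be seen in the 9 libraries with 22 to 63 nuclei, where genes of few UMIs were left untested.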
